A study of Mus musculus with 24 samples.

Results

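Replication-dependent histone genes encode the core histones H2A, H2B, H3 and H4 that package newly made DNA. Members were taken as every row of the deposited expression table whose symbol has a canonical core histone name (H2ac, H2bc, H3c or H4c with a number, or an older Hist name), leaving out symbols that end in -ps. Of 54242 rows, 61 had such a name, 1 of these (H2ac5-ps) was dropped, and 60 members remained: 19 H2A, 17 H2B, 12 H3 and 12 H4 genes. The linker histones of the same gene clusters carry H1f names and are not members. The rule reads symbols only, and it was set with earlier results of these data known.

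RNA-seq was carried out on 24 libraries of CGR8, a single mouse embryonic stem cell (ESC) line, with 3 independent libraries in each of 8 groups, to follow gene expression after depletion of RSL24D1, a factor needed to assemble the large ribosomal subunit. Cells were transfected with a pool of non-targeting siRNAs (si-CTL) or with a pool against Rsl24d1 (si-Rsl24d1), and were either kept self-renewing in serum with LIF (day 0) or treated with 10 nM retinoic acid (RA) for 4 days (day 4). Each of these 4 conditions was sampled without rescue and with rescue, in which doxycycline switches on an added copy of the RSL24D1 coding sequence. Cells that got no doxycycline are labelled as having an empty vector, so the vector and doxycycline cannot be told apart from the rescue itself, also in si-CTL cells, where RSL24D1 was not depleted. The study's methods describe RA without LIF and the design text LIF together with RA, so whether LIF was absent at day 4 is not settled here, and a difference between the days is one between these cultures. The labels give collection at 72 h in the protocol and at 48 h in the sample descriptions of day 0. The 2 sources on the libraries also differ: the labels name a poly-A kit and the study's methods a total RNA kit.

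Canonical core histone mRNAs are the best known animal mRNAs without a poly-A tail. They are unspliced, end in a short conserved hairpin that is bound by the stem-loop binding protein SLBP and cut next to it with the help of the U7 small nuclear RNA, and they accumulate while a cell copies its DNA. ESCs spend most of their cycle in S phase and are known for high production of these mRNAs. A library prepared from poly-A RNA therefore holds few of their reads, and the hairpin is what sets them apart in sequence.

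The hairpins of 7 members that the results below turn on are printed as DNA, 5′ to 3′, each with 6 transcript bases on either side. Capitals mark the 16 bases of the hairpin (a 6-base stem, a loop of 4 bases and the complementary stem). They were read from the transcripts of gencode vM21 (GRCm38).
H2ac8: aacaaaGGCTCTTTTCAGAGCCattcac
H2ac11: aacaaaGGCTCTTTTCAGAGCCacctaa
H2bc11: tccaaaGGCTCTTTTCAGAGCCacgcac
H2bc12: accaaaGGCTCTTTTAAGAGCCactaaa
H3c3: aaaaaaGGCTCTTTTAAGAGCCacctaa
H4c9: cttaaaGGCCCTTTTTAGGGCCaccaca
Hist1h4n: actaaaGGCCCTTTTCAGGGCCatccaa

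The pattern GG, any 2 bases, CTTTT, any base, AG, any base and GCC, in a row and searched on the transcript strand, lay in a transcript of 35 of the 60 members and in 52 of 55450 annotated genes (0.094%). It came in 5 versions. The version with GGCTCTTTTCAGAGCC was in 21 members, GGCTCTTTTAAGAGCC in 5, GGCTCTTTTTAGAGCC in 1, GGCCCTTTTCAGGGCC in 6 and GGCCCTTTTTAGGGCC in 2. The GGCTC stem was found in H2A, H2B and H3 members and the GGCCC stem in H4 members, as in H4c9 and Hist1h4n above. By family, 10 of 19 H2A, 9 of 17 H2B, 8 of 12 H3 and 8 of 12 H4 genes held the pattern. Of the 25 without it, 13 have no untranslated bases in the annotation, so that their models stop before the place of a hairpin. The other 12 have annotated untranslated bases, at either end, and no match. Some of their models are hardly longer than the coding part, such as H2ac10 (399 bases) and H2ac12 (405) beside H2ac13 (393), which has none. A hairpin with other letters at the fixed positions would not match either. A missing match therefore does not show that a gene lacks a hairpin. Of the 35 with it, the pattern lay within 200 bases of the transcript end in 23 and over 300 bases before it in 12.

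All 60 members were found in gencode vM21 through their older names, 50 on chromosome 13 and 10 on chromosome 3. For 55 of them every annotated transcript is a single exon, and 5 have a spliced transcript (H2bc4, H2bc6, Hist1h2bp, Hist1h2bq and Hist1h2br). The lengths of the transcripts ran from 312 to 2620 bases, and 13 members had a transcript of over 1000 bases. Hist1h2al (chr13:51202727-51203065) and H2ac14 are annotated as pseudogenes although their symbols carry no -ps. Members share much sequence: the median share of a member's 31-base words that also occur in another gene was 62.4%, it was above 50% for 42 members, below 10% for 2 and 100% for H2ac19 and H3c14. Reads of such genes can be divided among near-identical copies, so that a level of 1 member, H2ac19 above all, is uncertain, and sums over members are given beside it.

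Promoters are shown for 3 members whose levels fell most clearly at day 4, H2ac8, H2bc11 and H4c9. Each runs from 250 bases before to 50 bases after the annotated start (RefSeq, GRCm38.p6), 5′ to 3′ on the strand of the gene, with capitals marking the motifs TATAAA (the TATA box), CCAAT and ATTTGCA (the core of the octamer) on either strand. The windows are chr13:23571171-23571470 (minus strand) for H2ac8, chr13:22042948-22043247 (plus strand) for H2bc11 and chr13:22041313-22041612 (minus strand) for H4c9.
H2ac8: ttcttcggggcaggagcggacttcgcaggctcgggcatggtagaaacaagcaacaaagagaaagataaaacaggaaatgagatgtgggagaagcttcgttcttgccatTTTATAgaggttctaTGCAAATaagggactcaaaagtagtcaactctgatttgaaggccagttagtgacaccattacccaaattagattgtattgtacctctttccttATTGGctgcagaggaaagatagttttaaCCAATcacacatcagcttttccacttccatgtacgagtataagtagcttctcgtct
H2bc11: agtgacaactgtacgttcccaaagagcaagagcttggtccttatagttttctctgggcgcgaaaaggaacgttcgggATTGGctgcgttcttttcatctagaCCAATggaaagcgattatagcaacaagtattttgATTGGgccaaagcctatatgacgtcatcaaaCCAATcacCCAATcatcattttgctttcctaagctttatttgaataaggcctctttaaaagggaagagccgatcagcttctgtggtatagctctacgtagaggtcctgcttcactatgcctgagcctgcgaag
H4c9: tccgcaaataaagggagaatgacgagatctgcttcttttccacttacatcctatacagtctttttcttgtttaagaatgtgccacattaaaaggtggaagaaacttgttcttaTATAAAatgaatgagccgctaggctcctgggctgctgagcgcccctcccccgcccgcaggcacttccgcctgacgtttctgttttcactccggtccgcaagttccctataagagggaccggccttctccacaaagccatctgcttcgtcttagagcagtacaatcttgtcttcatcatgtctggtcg

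RefSeq gave 46 such promoters for 45 members and 32851 in all. The CCAAT motif lay in 40 of the 46 (87.0%) and in 37.41% of all promoters: in every H2A (14), H2B (13) and H3 (10) promoter and in 3 of 9 H4 promoters. TATAAA was found in 26 (56.5%) against 13.62% of all. The octamer core was found in 13 (28.3%) against 4.02% of all, in 6 of 14 H2A and 7 of 13 H2B promoters and in 0 H3 and 0 H4 promoters. These are matches of letters in 1 window, and matches of different motifs can share bases. In 13 pairs an H2A and an H2B gene are transcribed away from each other, with starts 176 to 306 bases apart, so that the windows of such a pair overlap. H2ac8 and H2bc8 are the closest pair.

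In these libraries the 60 members together summed to between 69.8 and 182.0 TPM (transcripts of a gene per 1000000 transcripts), which is 0.00698 to 0.0182% of the total. The 13 listed polyadenylated histone variants, such as H3f3a, H3f3b and H2az1, summed to 3992 to 4883 TPM, 25.4 to 58.4 times as much. Levels of single genes are given as TPM, which are per length, and differences between groups as log2(TPM + 1). TPM keep no read number, so the depth behind a value is unknown. Of the 60 members, 37 were above 0 in all 24 libraries. A mean log2(TPM + 1) of at least 0.5 was reached by 48 members (12 H2A, 14 H2B, 12 H3 and 10 H4), which is 80.0% of members against 30.3% of all genes, and only these 48 were tested. Just outside were H2ac14 (0.429) and Hist1h2ao (0.469), and just inside Hist1h2br (0.501) and H4c3 (0.601). The 12 members not tested had means from 0 to 0.469 and reached 5.87 TPM at most, and Hist1h4m was listed at 0 in every library.

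The members with the highest mean log2(TPM + 1) over the 24 libraries were H2ac13 (2.99), H2ac10 (2.87) and Hist1h2ap (2.87) among the H2A genes, H2bc4 (2.98), H2bc12 (2.64) and H2bc11 (1.83) among the H2B genes, H3c10 (2.90), H3c3 (2.58) and H3c8 (2.12) among the H3 genes and H4c9 (2.83), Hist1h4n (2.31) and H4c2 (2.02) among the H4 genes. They encode core histones of their family that differ by few amino acids. The 6 with the most TPM (H2ac13, H2bc4, H3c10, H2ac12, H2ac10 and Hist1h2ap) held 27.9 to 40.8% of the members' TPM in a library. Several of these varied widely within a group. H2ac13, with 92.0% of its 31-base words in another gene, was at 2.53, 5.60 and 0 TPM in the 3 day 4 si-CTL libraries with rescue, and at 5.84, 10.67 and 22.37 TPM in the day 0 si-Rsl24d1 libraries without rescue. The median standard error of a difference between 2 groups was 0.25 for the 48 members and 0.09 for all 16447 tested genes.

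The targeted gene Rsl24d1 was lower with its siRNA at day 0. In log2(TPM + 1) the si-CTL libraries without rescue averaged 7.15 ± 0.06 (SD, n = 3) and the si-Rsl24d1 libraries 5.20 ± 0.11. With rescue, whose transcripts carry the same symbol, the averages were 7.25 ± 0.06 and 6.75 ± 0.17. At day 4 Rsl24d1 no longer differed by more than the threshold between the siRNAs, with differences of -0.04 without and 0.15 with rescue (limma, adjusted p = 0.66 and 0.19). All 10 ESC markers checked were present at day 0, from 4.77 (Tfcp2l1) to 11.36 (Dppa5a) in si-CTL cells without rescue. They were still present at day 4, but most were lower in si-CTL cells. Without rescue 8 of the 10 were lower on average than at day 0 and 2 higher, with a median difference of -0.72. Of them 3 were called lower and 1 higher. Pou5f1 went from 10.12 to 9.02 there and Nanog from 7.53 to 8.32. With rescue 2 were called lower and 1 higher (median -0.41). The summed TPM of the 10 ESC markers, which weighs the most abundant ones most, was higher at day 4. In si-CTL cells it ran from 5676 to 5810 at day 0 and from 7067 to 7252 at day 4 without rescue. With rescue it ran from 5862 to 6095 and from 6606 to 6914. After depletion of RSL24D1 the median differences between the days were 0.27 without and 0.03 with rescue. Most fibroblast and extraembryonic endoderm markers were higher at day 4. In each day comparison 4 to 6 of 7 tested fibroblast markers were called higher and 1 lower (Thy1), and 3 to 6 of 6 endoderm markers were called higher and 0 lower. Their summed TPM ran from 21.8 to 47.3 and from 4.0 to 8.1 at day 0 and from 107.2 to 280.9 and from 16.5 to 45.3 at day 4. Of these 15 entries (Pdgfra stands in both lists) none was listed at 0 in every library of a day 4 group, and Lum was at 0 in both si-Rsl24d1 groups of day 0. The part of such cells in the results was not tested. In bulk RNA, fewer cells in S phase and less histone RNA per cell cannot be told apart.

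Summed over all 60 members, histone RNA was highest in the day 0 groups with rescue and lowest in si-CTL cells treated with RA under rescue. Without rescue, si-CTL libraries summed to 119.9, 133.9 and 121.5 TPM at day 0 and to 83.7, 95.2 and 114.3 TPM at day 4. With rescue, si-CTL libraries summed to 144.8, 182.0 and 167.8 TPM at day 0 and to 72.8, 69.9 and 69.8 TPM at day 4. In both settings every day 4 library lay below every day 0 library. In si-Rsl24d1 cells the days overlapped: 137.7, 136.0 and 160.1 TPM at day 0 against 151.9, 117.7 and 131.5 TPM at day 4 without rescue, and 165.9, 170.3 and 139.2 TPM against 117.3, 158.5 and 107.3 TPM with rescue. The 3 si-CTL libraries with rescue at day 4 were the lowest of all 24, and all 4 families were low in them. Their H2A sum was 24.5 ± 1.10 TPM (SD, n = 3) against 61.5 ± 8.46 at day 0, H2B 17.2 ± 1.12 against 33.2 ± 5.69, H3 16.3 ± 1.62 against 36.6 ± 3.16 and H4 12.9 ± 1.27 against 33.7 ± 6.10. With 3 libraries in each of 2 groups, the smallest p of an exact two-sided permutation test is 0.1, so sums carry no p.

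**Figure D1:**
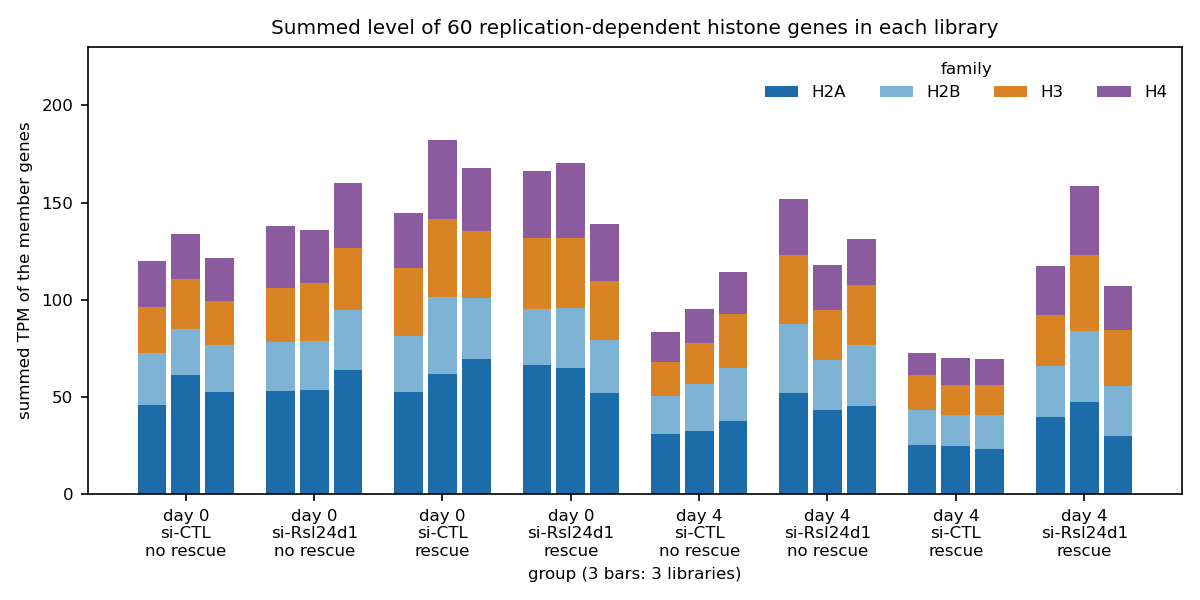
Summed TPM of the 60 members in each of the 24 libraries, 1 stacked bar a library, coloured by histone family, in 8 groups of 3 libraries along the horizontal axis. The 3 day 4 si-CTL libraries with rescue stand at 69.8 to 72.8 TPM, below every other library, and the highest bar is a day 0 si-CTL library with rescue at 182.0 TPM.

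RA treatment was followed by lower histone RNA most clearly in si-CTL cells with rescue. Here 24 of the 48 tested members fell and 0 rose past the threshold (limma, Benjamini-Hochberg adjusted p below 0.01 and more than 1.8-fold on the log2(TPM + 1) scale, a difference of 0.848). Of all 16447 tested genes 15.6% were called there, 4.82% lower (792) and 10.7% higher (1767). The median difference was -0.89 over the members and 0.12 over all genes, and 44 of 48 members were lower on average. In 35 members every day 4 library lay below every day 0 library, which held for 27.7% of all genes. Of 12 other RNAs without poly-A tails 8 were called lower in the same comparison, with a median of -2.27, and with the mean of the 13 such RNAs in the table as a covariate 5 members were called, 4 of them among the 24. The part of this shared movement was not tested. All families took part, with 6 of 12 H2A, 6 of 14 H2B, 5 of 12 H3 and 7 of 10 H4 genes called. Of the members with a transcript of over 1000 bases 2 of 10 were called (median -0.25) and of the shorter ones 22 of 38 (median -0.95). The 2 classes differ in level too. All 13 longer members held 7.1 to 19.8% of the members' TPM. Tested ones had mean log2(TPM + 1) from 0.50 (Hist1h2br) to 1.15 (H4c4), apart from H2bc4 at 2.98. Shorter ones ran from 0.60 to 2.99. The added 1 shrinks differences at low levels, and the part of length was not tested. Members with the hairpin pattern (16 of 30 called, median -0.91) and without it (8 of 18, median -0.82) stood close together.

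The 5 largest falls in this comparison were those of H2ac13, H2ac8, H2bc11, H2ac4 and H3c13. H2ac8 (chr13:23570517-23571220, minus strand, a single exon) encodes an H2A protein and was at 5.29, 5.56 and 6.51 TPM at day 0 and at 1.24, 0.97 and 1.03 TPM at day 4. H2bc11, an H2B gene (chr13:22043214-22043676, plus strand), was at 3.42, 5.62 and 4.63 TPM and at 0.64, 1.14 and 0.57 TPM. The 2 days did not overlap for either gene. The difference was -1.70 (standard error 0.16, adjusted p = 1.46e-08 from limma) for H2ac8 and -1.63 (standard error 0.16, adjusted p = 1.43e-08) for H2bc11. H2ac13 had a larger difference of -1.96 with a standard error of 0.62 (adjusted p = 0.00883), and its call was lost without any 1 of 5 of the 6 libraries. Without day 4 si-CTL rescue replicate 3, which is listed at 0, the difference was -1.21. H2ac4 fell by 1.43 and the H3 gene H3c13 by 1.32. H4c9 (chr13:22040636-22041362, minus strand), the most abundant H4 gene, was at 7.12, 7.46 and 9.35 TPM at day 0 and at 3.26, 3.17 and 3.27 TPM at day 4. Its difference was -1.08 (standard error 0.10, adjusted p = 8.04e-09), the most precise of the 24. H4c2 (chr13:23757013-23757409, plus strand) went from 3.28, 5.46 and 4.33 TPM to 1.46, 1.07 and 1.71 TPM, a difference of -1.14 (adjusted p = 4.02e-05). Just past the threshold stood Hist1h2ap at -0.85.

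**Figure D2:**
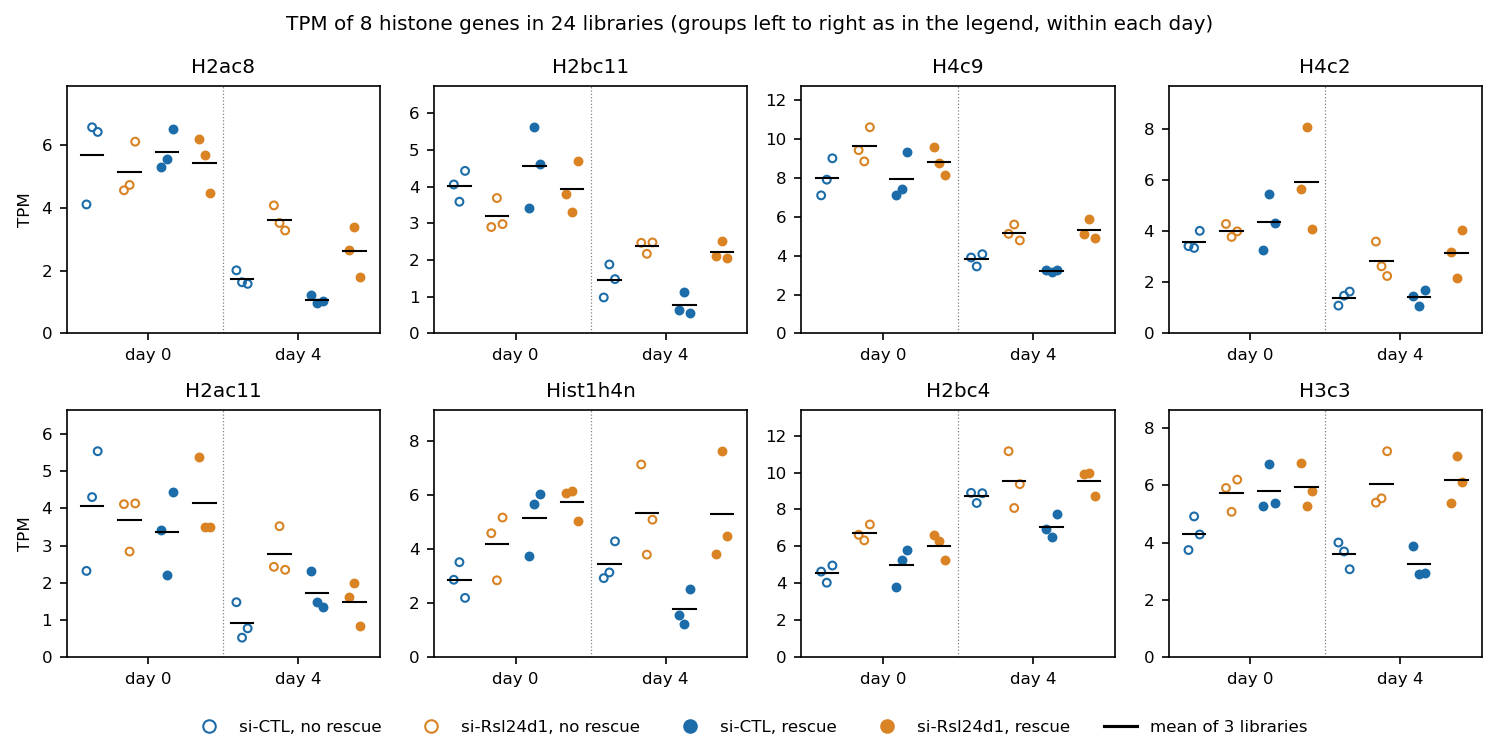
TPM of 8 members (vertical axis, from 0) in the 24 libraries, with day 0 left and day 4 right of the dotted line; points are libraries, bars the mean of 3, open symbols cells without and filled symbols with rescue, blue si-CTL and orange si-Rsl24d1. H2ac8, H2bc11 and H4c9 are lower at day 4 in every pair of groups, H2bc4 is higher, and for Hist1h4n the 3 filled blue points at day 4 (1.57, 1.23 and 2.52 TPM) are low while the other day 4 groups are not.

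In si-CTL cells without rescue the same days differed in fewer members. Here 7 of 48 were called, where 15.0% of all tested genes were, 2 members higher and 5 lower beside 6.77% and 8.24% of all genes. With libraries scaled by the median of ratios, 3 were called higher and 3 lower, and this scaling moved the median of all genes from -0.10 to 0.04. The members' median was -0.17. The 5 that fell were H2ac11, H2ac8, H2bc11, H4c2 and H4c9. H2ac11 (chr13:22042460-22042944, minus strand), the divergent neighbour of H2bc11, was at 2.32, 4.30 and 5.53 TPM at day 0 and at 1.48, 0.53 and 0.78 TPM at day 4. H2ac8 went from 4.11, 6.57 and 6.42 TPM to 2.01, 1.63 and 1.58 TPM. H2bc11 went from 4.06, 3.59 and 4.43 TPM to 0.98, 1.88 and 1.48 TPM. All 3 genes were lower in every day 4 library, by -1.36, -1.27 and -1.05 (limma, adjusted p = 0.000105, 8.42e-07 and 5.3e-06), and kept their calls under each of 12 alternatives. H4c2 and H4c9 fell by 0.94 and 0.90. Called higher were H3c14, at 0, 0 and 0.39 TPM at day 0 and 1.17, 1.14 and 1.22 TPM at day 4, and H2ac19, listed at 0 in all 3 day 0 libraries, for which no fold is given. The call of H3c14 was kept under 8 of 12 alternatives and that of H2ac19 under 5. All 31-base words of H3c14 occur in another gene, 35.4% of them in another member. The summed TPM of H3c14 and H3c15 was 0.63 ± 0.12 (SD, n = 3) at day 0 and 1.79 ± 0.05 at day 4. H2ac18 and H2ac19 have near-identical transcripts, and their summed TPM was 2.55 ± 0.63 (SD, n = 3) at day 0 and 3.36 ± 0.97 at day 4.

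In si-Rsl24d1 cells few members passed the threshold between the days. Without rescue 1 of 48 was called (H2ac19, higher at day 4, at 2.09, 0 and 0 TPM at day 0 against 3.40, 3.32 and 3.31), where 14.1% of all genes were (7.93% higher), and the members' median was -0.11. With its near-identical neighbour the sum of H2ac18 and H2ac19 was 3.69 ± 1.28 TPM (SD, n = 3) at day 0 and 3.98 ± 1.15 TPM at day 4. With 0.1 in place of 1 added to the TPM, 0 members were called higher and 2 lower. This call was lost without replicate 2 or 3 of either day. With rescue 4 of 48 were called, all lower, beside 14.9% of all genes (5.57% lower), and the median was -0.06. They were the H2A genes H2ac19 (-1.59), H2ac15 (-1.08), H2ac11 (-1.06) and H2ac8 (-0.85). The sum of H2ac18 and H2ac19 was 4.67 ± 0.31 TPM at day 0 and 3.02 ± 1.21 TPM at day 4, with every library of day 4 below every library of day 0. H2ac8 was at 6.19, 5.67 and 4.47 TPM at day 0 and 2.67, 3.40 and 1.79 TPM at day 4 there. For H2ac15 the days overlapped. The count was 0 without day 0 replicate 1, 1 without day 0 replicate 2 and 2 without day 4 replicate 1. The 4 day comparisons share no library, but their groups were fitted with 1 estimate of the spread.

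**Figure D3:**
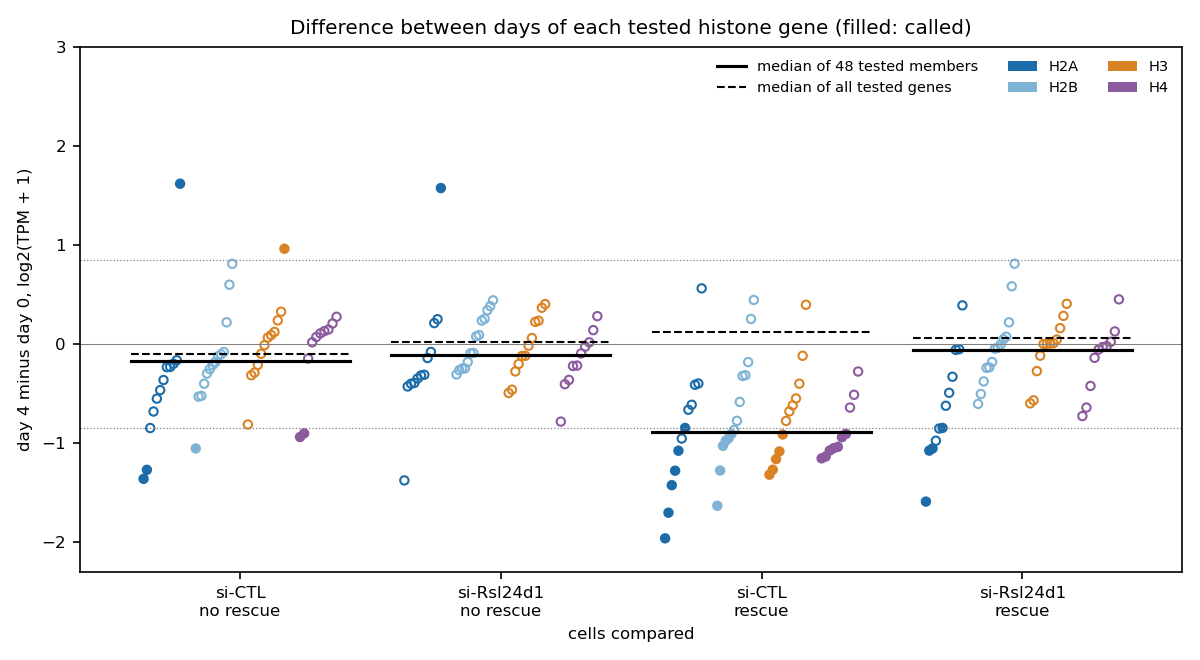
Difference between day 4 and day 0 in log2(TPM + 1) for each of the 48 tested members (points, coloured by family, filled where called) in 4 settings, with the medians of the members (solid line) and of all 16447 tested genes (dashed line) and dotted lines at the fold threshold of 0.848. The solid line stands at -0.89 in si-CTL cells with rescue, with 24 filled points, and between -0.17 and -0.06 in the others; the filled H2A point above 1 in the 2 settings without rescue is H2ac19, which is listed at 0 in all 3 day 0 si-CTL libraries without rescue.

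Over the 4 settings, 17 of the 48 members were lower at day 4 on average each time and 3 were higher each time. In 5 of these every day 4 library lay on 1 side of every day 0 library in all 4 settings: H4c9, H2ac8, H2bc11 and H4c2 below, and H2bc4 above. In the order used below, the settings alone had 9, 6, 35 and 7 members with every day 4 library below. Of the 16447 tested genes 7159, 5259, 4554 and 5143 did so. Above lay 4, 3, 1 and 2 members, and 4759, 5641, 7200 and 6402 genes. Over all genes, neither a steady direction of the mean nor a separation in all 4 settings was counted. H4c9 was lower in every day 4 library in each of them, by -0.90, -0.78, -1.08 and -0.64 (si-CTL and si-Rsl24d1 without rescue, then with rescue; the highest adjusted p from limma was 9.19e-06), and 2 of these differences passed the fold threshold. H2ac8 and H2bc11 were lower in every day 4 library in all 4 settings too, with -1.27, -0.40, -1.70 and -0.85 for H2ac8 and -1.05, -0.31, -1.63 and -0.61 for H2bc11. The H2B gene H2bc4 (chr13:23684199-23692908, plus strand) went the other way. It has a spliced transcript of 1156 bases without the hairpin pattern. Without rescue it was at 4.64, 4.04 and 4.97 TPM at day 0 and 8.90, 8.35 and 8.88 TPM at day 4 in si-CTL cells. Its differences were 0.81, 0.44, 0.45 and 0.58 (highest adjusted p = 0.00275), with every day 4 library above every day 0 library. None passed the fold threshold.

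Genes of a divergent H2A and H2B pair mostly fell together in si-CTL cells with rescue, though often only 1 of them passed the threshold. Of the 13 pairs, 6 had both genes tested, and in si-CTL cells with rescue both were called lower at day 4 in 1 pair (H2ac8 with -1.70 and H2bc8 with -1.28), and 1 gene was called in the other 5. Of these, H2ac7 and H2bc7 had differences of -0.955 and -0.979, H2ac13 and H2bc13 of -1.96 and -0.87, and H2ac11 and H2bc11 of -0.66 and -1.63. Hist1h2ap and Hist1h2br went apart (-0.85 and 0.25), and Hist1h2br lay just inside the filter (0.501). In the pair H2ac12 and H2bc12 the differences were 0.56 and -0.91. H2ac12 was at 9.28, 8.41 and 0 TPM in the 3 day 0 libraries, so that its spread is wide.

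The siRNA left the members within the threshold at day 0. Without rescue 0 of 48 were called, where 4.18% of all genes were, with 7 members at an unadjusted p below 0.05 and 2 at an adjusted p below 0.01 (limma), a mark that 30.4% of all genes passed. The median difference was 0.18, and all 10 H4 genes were higher in si-Rsl24d1 cells on average (0.13 to 0.75). With rescue 0 were called again (1.36% of all genes), 5 were at an unadjusted p below 0.05, and the median was -0.12. H4c9 was at 7.11, 7.92 and 9.02 TPM in si-CTL and at 9.44, 8.86 and 10.62 TPM in si-Rsl24d1 cells without rescue. These 2 groups overlapped. Of 36 S phase and replication genes, 28 were lower and 1 higher at an adjusted p below 0.01 in si-Rsl24d1 cells without rescue, with a median of -0.32, although only the cell cycle inhibitor Cdkn1a passed the fold threshold (1.18).

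At day 4 few members passed the threshold between the siRNAs, while 43 of 48 with rescue and 36 of 48 without were higher on average in si-Rsl24d1 cells. With rescue 2 of 48 were called higher and 0 lower (0.730% of all genes were called, 0.693% higher), 7 were past an adjusted p of 0.01 beside 5.87% of all genes, and the median was 0.54 beside -0.04 for all genes. In 24 members all 3 si-Rsl24d1 libraries lay above all 3 si-CTL libraries, and in 0 below, where 10.8% of all genes lay above and 24.8% below. All 14 H2B and all 10 H4 genes were higher on average, with medians of 0.44 and 0.65. The 2 called were Hist1h4n and H2bc11. Hist1h4n, an H4 gene (chr13:21831767-21832196, minus strand), was at 1.57, 1.23 and 2.52 TPM in si-CTL and at 3.83, 7.62 and 4.48 TPM in si-Rsl24d1 cells, a difference of 1.17 (standard error 0.24, adjusted p = 0.00317 from limma). H2bc11 was at 0.64, 1.14 and 0.57 TPM in si-CTL and at 2.12, 2.52 and 2.05 TPM in si-Rsl24d1 cells, a difference of 0.87 (adjusted p = 0.000873). The groups did not overlap for either. H3c3, an H3 gene, came near with 3.87, 2.92 and 2.95 TPM against 5.36, 7.03 and 6.12 TPM (0.76, adjusted p = 0.000591). The count was 1 without any 1 of the 3 si-CTL libraries or without si-Rsl24d1 replicate 2, and 4 without si-Rsl24d1 replicate 3.

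Without rescue at day 4, 2 of 48 were called higher in si-Rsl24d1 cells and 0 lower (1.63% of all genes were called, 1.45% higher), with medians of 0.28 for the members and 0.13 for all genes. Scaling by the median of ratios moved the latter to 0.00 and left 0 members called. The 2 were H2ac11, at 1.48, 0.53 and 0.78 TPM in si-CTL and 2.43, 3.52 and 2.35 TPM in si-Rsl24d1 cells (0.98, adjusted p = 0.00485 from limma), and Hist1h2bq (0.94, adjusted p = 0.00822), an H2B gene with 98.3% of its 31-base words in another gene. Both calls were lost without si-CTL replicate 2, si-Rsl24d1 replicate 2 or si-Rsl24d1 replicate 3, and 1 was left without si-CTL replicate 1. H2ac8 was at 2.01, 1.63 and 1.58 TPM against 4.08, 3.52 and 3.28 TPM, a difference of 0.76 (adjusted p = 0.00106) within the fold threshold. At day 4 the summed TPM of the fibroblast markers was 107.2 to 115.2 in si-CTL and 210.6 to 280.9 in si-Rsl24d1 cells without rescue, and 132.8 to 152.5 and 171.3 to 187.8 with rescue. Extraembryonic endoderm markers summed to 16.5 to 22.4 and 34.2 to 45.3, and to 20.7 to 25.5 and 31.5 to 34.2. Their part in the histone values was not tested.

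The effect of the siRNA differed between the days for 1 member without rescue, H2ac8, with a difference of differences of 0.87 (standard error 0.23, adjusted p = 0.00464 from limma; 1 of 48 called, beside 5.61% of all genes, 2.90% in this direction). Its siRNA difference was -0.12 at day 0 and 0.76 at day 4. This call was lost without day 0 si-CTL replicate 2 or 3, day 0 si-Rsl24d1 replicate 1 or 2 or day 4 si-Rsl24d1 replicate 1, and with median of ratios scaling, which moved the median of all genes by -0.14 and that of the members from 0.05 to -0.08. Without day 0 si-CTL replicate 1 the count was 2.

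In si-CTL cells most members were higher with rescue at day 0 (42 of 48) and lower with rescue at day 4 (38 of 48) on average, without any call. At day 0, 0 of 48 were called and 0.00% of all genes, 15 members were at an unadjusted p below 0.05, and 15 were higher in every library with rescue, which held for 4.20% of all genes. The members' median was 0.36 and that of all genes -0.12. At day 4, 0 were called (0.0547% of all genes), 13 were at an unadjusted p below 0.05 and 13 were lower in every library with rescue (8.87% of all genes), with medians of -0.29 and 0.09. In si-Rsl24d1 cells rescue gave 0 calls on either day (0.280% and 0.0851% of all genes), with 2 and 8 members at an unadjusted p below 0.05 and medians of 0.05 and 0.01.

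Tested directly, in a comparison added after these values were seen, the change between the days depended on rescue in si-CTL cells for 6 of 48 members, all more negative with rescue, where 2.38% of all genes were called, 0.195% lower and 2.19% higher. The median was -0.59 for the members and 0.21 for all genes, and with median of ratios scaling -0.76 and -0.01. They were Hist1h4n (-1.36), H3c1 (-1.33), H4c1 (-1.18), H2bc3 (-1.17), H4c4 (-0.92) and H2ac19. H4c1, an H4 gene, was at 1.86, 1.4 and 0.69 TPM at day 0 and 1.09, 1.67 and 1.81 TPM at day 4 without rescue, and at 2.94, 3.76 and 2.74 TPM and 1.36, 0.94 and 0.76 TPM with rescue. The days overlapped without rescue and not with it. The count was 1 without day 4 replicate 3 of the cells without rescue. It was 3 without replicate 1 of day 0 or replicate 2 of day 4 of these cells, and without day 0 replicate 2 or any 1 of the 3 day 4 libraries of the cells with rescue. A second added comparison, of the siRNA effect at day 4 with against without rescue, gave 0 of 48 called (0.511% of all genes) with 6 at an unadjusted p below 0.05. All comparisons that use the day 4 si-CTL cells with rescue share the same 3 libraries, so their values are not independent of each other.

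Other RNAs without poly-A tails moved with the members in most comparisons and against them in some. The list holds 13 such RNAs found in the table, among them the 7SL RNA Rn7s1, the 7SK RNA Rn7sk, the RNase MRP and RNase P RNAs Rmrp and Rpph1 and the Y RNAs Rny1 and Rny3, and 12 were tested. Their mean log2(TPM + 1) was 1.39 ± 0.45 (SD, n = 3) in day 4 si-CTL cells with rescue and 3.33 ± 0.42 in si-Rsl24d1 cells with rescue. At day 0 it was 3.55 ± 0.47 in si-CTL cells with rescue and 1.83 ± 0.51 without. Between the days in si-CTL cells with rescue 8 of the 12 fell past the threshold, among them Rn7s1 (-3.89) and Rmrp (-3.88). Between the siRNAs at day 4 with rescue the median was 2.41 and 1 was called higher (Rmrp). Without rescue, between the days in si-CTL cells, the median was 1.46, and the members' median was -0.17. The 2 medians also had opposite signs for the siRNA at day 4 without rescue (-0.28 and 0.28) and siRNA by day (-1.62 and 0.05). So they did for the days in si-Rsl24d1 cells with rescue (0.67 and -0.06) and rescue in si-Rsl24d1 cells at day 0 (-0.24 and 0.05). In the other comparisons their signs were the same.

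Over the 24 libraries the mean of the 48 tested members and the mean of these 13 RNAs correlated with Pearson's r = 0.706 and Spearman's rho = 0.668. Without the 2 libraries whose mean of the 48 members lay farthest from its median, r was 0.598. Within day 0 r was 0.789 and within day 4 it was 0.840, over 12 libraries each. Deviations of each library from its group mean, which hold no difference between groups, gave r = 0.770 and rho = 0.726, and the same library was highest for both in 6 of 8 groups. The points share library preparation, depth and the normalization, so these are descriptions with no p. For the polyadenylated histone variants the correlation of deviations was -0.092.

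**Figure D4:**
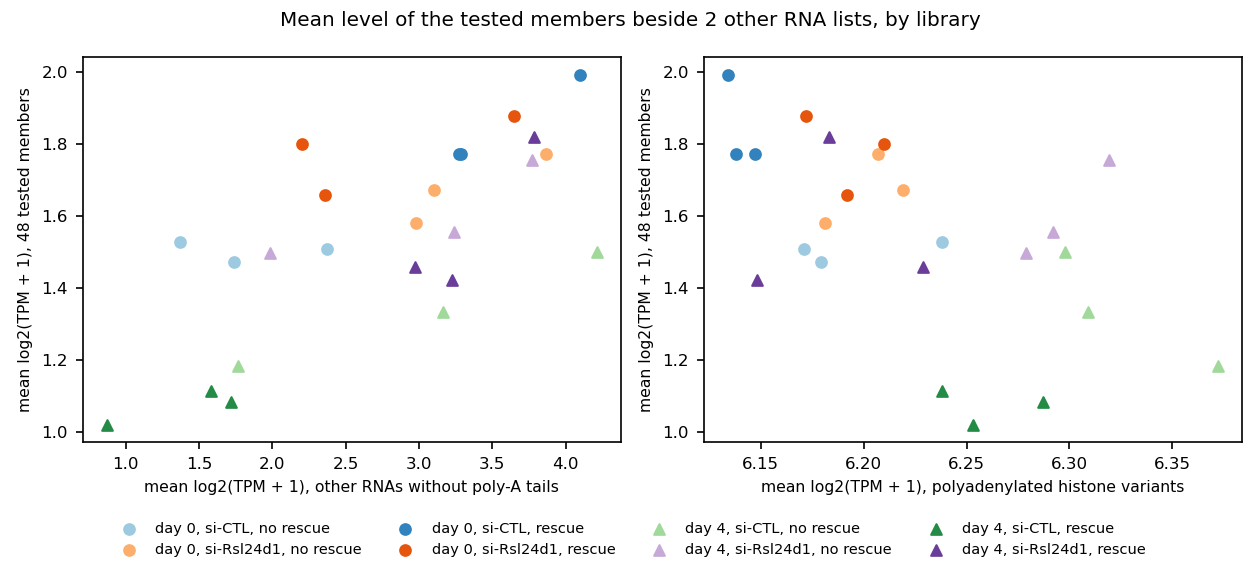
Mean log2(TPM + 1) of the 48 tested members (vertical axis) against that of 13 other RNAs without poly-A tails (left) and of 13 polyadenylated histone variants (right), 1 point a library, circles day 0 and triangles day 4, coloured by group. In the left panel both means tend to be high or low in the same libraries (r = 0.706 over 24 libraries), with the 3 day 4 si-CTL libraries with rescue at the lower left.

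With the mean of the 13 RNAs as a covariate in the same fit, an alternative added after these values were seen, the 5 members called lower between the days in si-CTL cells with rescue were H2ac8, H2bc11, H4c9, H4c2 and H2ac11. The members' median moved from -0.89 to -0.51. For the siRNA at day 4 with rescue the median moved from 0.54 to 0.25 and 0 members were called. Of the 6 members whose day difference depended on rescue, 0 were called. The covariate itself differs between the groups, so this fit cannot separate a change of the histone genes from one of the other RNAs, and the cause of the shared movement was not tested.

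The list of polyadenylated variants holds mostly core histone variants made outside S phase as well, such as H3f3a and H2az1, and also the linker histones H1f0 and H1f10 and H2ax, whose gene is known to make a hairpin mRNA too. Of 11 tested, 0 were called between the siRNAs or by rescue. Between the days in si-CTL cells with rescue 2 were higher, Macroh2a1 (1.15) and Macroh2a2 (0.99), and 0 lower, with a median of 0.12. Of 18 tested genes of the histone locus body and of histone 3' end processing, 1 was lower there (Srrt, -1.13), with a median of -0.06. Slbp, which binds the hairpin, was at 6.79 at day 0 and 6.50 at day 4 in log2(TPM + 1), and Npat, which drives histone gene transcription, at 4.05 and 4.55. Without rescue 6 of the 18 were lower at day 4 in si-CTL cells, with a median of -0.40. Of 21 histone chaperones and importers 1 was lower with rescue (Daxx, -1.15) and 5 without. Of 36 S phase and replication genes 2 were lower with rescue (Ccne1 and E2f2, -1.27 and -1.17) and 7 without, with medians of -0.23 and -0.53. In these 3 lists more genes were called lower without rescue, whereas of the members more were called lower with it. Of all tested genes, 8.24% were called lower without rescue and 4.82% with it. Under median of ratios scaling, 876 of all tested genes were called lower without rescue and 973 with it. These are counts of calls set side by side, and the difference between the lists was not tested.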

How the data were processed

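RNA-seq of 24 CGR8 libraries was read from 1 deposited table of log2(TPM + 1), in which the authors added 1 to the TPM of each gene, as estimated with Salmon and summarised with tximport. The submitters' processing notes name STAR 2.7.8a and Salmon 1.4.0 with build GRCh38, although the cells are of mouse and the study's methods name GRCm38 and a protein-coding gencode index, other versions and DESeq2 for the study's own tests. The deposited log2 values keep no read number: TPM sum to 1000000 in each library, the depth is unknown, and no count model, interval or detection floor can be given. Precision rests on 3 libraries a group, described in the design text as independent triplicates.

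Members were found by symbol, and their positions, lengths and hairpins by their older names in gencode vM21. Promoters came from RefSeq. The members and the gene lists were chosen with earlier results of these data known, including that RNAs without poly-A tails varied between groups. Groups were taken from the sample titles. The 16447 genes whose log2(TPM + 1) averaged 0.5 or more were fitted in limma 3.58.1 under R 4.3.3 (8 group means, 1 shared spread with an intensity trend), two-sided, with Benjamini-Hochberg adjustment over all tested genes in each comparison. Called means an adjusted p below 0.01 and more than 1.8-fold on the log2(TPM + 1) scale, the thresholds of the study. The added 1 shrinks the differences of genes with low TPM. The script was tested on simulated data. Alternatives were 0.1 in place of 1, no filter, median of ratios scaling, replicate number as a block, no fold threshold and each library left out. The 2 comparisons of rescue effects, the covariate fit and the list of H1f and other older-named histone genes were added after values had been seen. Named are the 3 most abundant members of a family, up to 5 called members in each direction and the members nearest the filter. H2bc4, H3c3, H3c15, H2bc8, H2ac12, H2bc12, H4c1, H2ac18, H2ac7, H2bc7, H2bc13 and Slbp, Npat were chosen for display after their values were seen.

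Samples with the same replicate number did not deviate together: 84 pairs with the same number had deviations from the group means that correlated with -0.0173 on average, and 168 pairs of unlike number with 0.0087. No library duplicates another (highest correlation 0.99116). The authors' own fold changes were not used.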

Additional observations from a re-analysis of the deposited data

Results flagged for a closer look

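For 7 results an effect differed between groups by an interaction test in limma. The siRNA effect on H2ac8 without rescue differed between the days by 0.87 on the log2 scale. The day effect in si-CTL cells differed between cells with and without rescue for Hist1h4n (-1.36), H3c1 (-1.33), H4c1 (-1.18), H2bc3 (-1.17) and H4c4 (-0.92), and for H2ac19 at an adjusted p of 0.01, with no size given because its levels are listed at 0 in 2 of the groups. All 6 of the latter were not called once the mean of the other RNAs without poly-A tails was added as a covariate, and what moves both was not tested.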

How the results depend on the processing

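In order of the comparisons (siRNA at day 0 without and with rescue, siRNA at day 4 without and with rescue, rescue in si-Rsl24d1 and then si-CTL cells at day 0 and day 4, day in si-CTL and si-Rsl24d1 cells without and then with rescue, siRNA by day, day by rescue, siRNA by rescue), leaving out 1 library gave 0 to 1, 0 to 1, 0 to 2, 1 to 4, 0 to 1 and 0 to 1 (si-Rsl24d1), 0 to 0 and 0 to 0 (si-CTL), 5 to 6, 0 to 2, 17 to 21, 0 to 4, 0 to 2, 1 to 6 and 0 to 1 called members. With 0.1 added in place of 1, the siRNA counts became 2 at day 0 without rescue, 4 and 7 at day 4 without and with rescue, 2 for rescue in si-CTL cells at day 4, 2 for the days in si-Rsl24d1 cells without rescue (0 higher and 2 lower, in place of 1 higher, H2ac19) and 1 for siRNA by rescue. Without the fold threshold they became 2, 6 and 7 for the same siRNA comparisons, 3 and 9 for the days in si-Rsl24d1 cells without and with rescue and 2 for siRNA by day. Without the filter 0 were left for the siRNA at day 4 without rescue, for the days in si-Rsl24d1 cells without rescue and for siRNA by day, and 2 for day by rescue. Median of ratios scaling left 0 for the siRNA at day 4 without rescue and 0 for siRNA by day. The covariate left 5 for the days in si-CTL cells with rescue, 0 for the siRNA at day 4 with rescue and 0 for day by rescue. With the replicate block 23 were called between the days in si-CTL cells with rescue and 5 in place of 6 for day by rescue, and no other count moved. Replicate numbers do not pair these libraries. In other comparisons the counts stayed within 1.5 times. No called member changed direction under an alternative, and H2ac8, H2bc11, H4c2 and H4c9 kept their calls under all 12 for the days in si-CTL cells with rescue. Each fit with a library left out shares the spread of the other groups. The unknown depth, the many bases shared among members and the kit, on which the sources differ, limit every value here.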

Other observations

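Of the genes outside the rule, those whose 8 group means were most like the mean of the tested members (Pearson's r over 8 group means, a description with no p) were 9230116N13Rik (0.943), the linker histone gene H1f5 (0.943), 4930445E18Rik (0.935), Tmem45a (0.933) and Mir6236 (0.927). H1f5 was at 1.03 in day 0 and 0.30 in day 4 si-CTL cells with rescue in log2(TPM + 1). Its list of 9 histone genes with older Hist names outside the rule (H1f1 to H1f6, H2aw, H2bu2 and H4f16) had 5 tested genes, of which 0 were called between the days in si-CTL cells with rescue (median -0.08). Deviations of this list's mean from the group means correlated with those of the members with r = 0.783 over 24 libraries, and the same library was highest in 8 of 8 groups. The 2 most abundant of the tested, H1f2 and H2bu2, were at 2.26 and 2.21 at day 0 and at 2.18 and 2.17 at day 4 in si-CTL cells with rescue.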
